A study of Mus musculus with 9 samples.

Results

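The collagen chains were all 44 genes whose single symbol in the array annotation is a collagen chain name, Col followed by a type number, the letter a and a chain number. They are 44 of the 19938 genes measured, and 46 probe sets carry them, because Col6a5 and Col6a6 have 2 probe sets each. Where a gene had several probe sets, the brightest on average was used. By class, 11 chains are fibrillar, 8 belong to basement membranes and 25 are of other kinds, such as network, beaded-filament, fibril-associated and membrane-spanning collagens. RNA came from uncultured cells of the ventricular zone of newborn C57BL/Ka mice, the layer beside the brain ventricles that holds radial glia, and was amplified and hybridized to 9 Affymetrix Mouse Gene ST 1.0 arrays. The genotypes were Prdm16LacZ/LacZ (KO), which has the LacZ allele on both copies of Prdm16, a transcriptional regulator gene, Prdm16LacZ/+ (HET), with 1 intact copy, and Prdm16+/+ (WT), with both copies intact. Each genotype has 3 arrays. The labels name no tissue-specific driver of the allele, and nothing in them says whether the 3 arrays of a genotype came from separate animals. The p-values thus gauge the scatter among 3 arrays a group, some or all of which may be technical.

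Collagens are extracellular proteins built from 3 chains wound into a triple helix, which is possible because glycine recurs at regular steps along each chain. Fibrillar chains assemble into the banded fibrils of connective tissue, which in the brain lie in the meninges and around large vessels. Type IV chains form the sheet of the basement membrane, on which radial glial endfeet rest at the brain surface and which surrounds brain vessels. Prolyl and lysyl hydroxylases modify the chains in the endoplasmic reticulum, the chaperone Serpinh1 helps them fold, and integrins, discoidin domain receptors and Adgrg1 bind them outside the cell.

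Every value is a log2 signal as deposited, so a difference of 1 is a doubling in signal. The signal of a probe set depends on its probes, so a difference in signal between genes is not a difference in the amount of RNA, and where signals are placed against the quartiles of an array this describes the brightness of probe sets only. A change was called where the adjusted p of limma's moderated test, fitted on all 19938 genes over the 9 arrays, was under 0.05. Prdm16 read 5.69, 6.41 and 6.17 in KO, 6.995, 7.34 and 6.998 in HET and 7.62, 7.57 and 7.23 in WT. It fell by 1.38 in KO relative to WT (SE 0.18, adjusted p = 0.0102), and the KO arrays overlapped with neither other genotype. That call was lost in 3 of 19 alternatives, without WT replicate 1 (adjusted p = 0.0757), without WT replicate 2 (adjusted p = 0.0689) and with only those genotypes fitted (adjusted p = 0.08). The labels do not place the probe set relative to the LacZ allele. HET lay 0.36 below WT (adjusted p = 0.993). Array medians lay between 5.80 and 5.92. The relative weight that limma gave each array reflects its scatter about the mean of its own genotype. The weights were 1.62, 0.364 and 0.679 in KO, 0.547, 0.767 and 1.14 in HET and 1.92, 1.85 and 1.48 in WT. KO replicate 2 and HET replicate 1 were thus the noisiest by this measure. The main fit did not use the weights, and an alternative fit did.

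None of the 44 collagen chains passed the test in any comparison. In KO against WT 0 chains were called, with 1 at an unadjusted p under 0.05, where limma called 0.451% of all genes (0.166% upward and 0.286% downward) and 6.15% had an unadjusted p under 0.05. In HET against WT 0 chains were called, with 2 at an unadjusted p under 0.05, where 0% of all genes were called and 4.05% had an unadjusted p under 0.05. In KO against HET 0 chains were called, with 0 at an unadjusted p under 0.05, where 0.206% of all genes were called (0.0451% upward and 0.16% downward) and 6.16% had an unadjusted p under 0.05. At these background shares a count of 0 among 44 chains says little, and the intervals bound the changes more closely. The 95% interval of the change lay within 1.5-fold in both directions for 42 of 44 chains in KO against WT, 42 in HET against WT and 43 in KO against HET, taking each chain on its own. Of all 19938 genes, 18756, 18867 and 18638 had such an interval in these comparisons. The chains were near that share, so the count is not particular to collagens. A fold measured on an array can be smaller than the fold in RNA, most of all for a dim probe set.

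**Figure D1:**
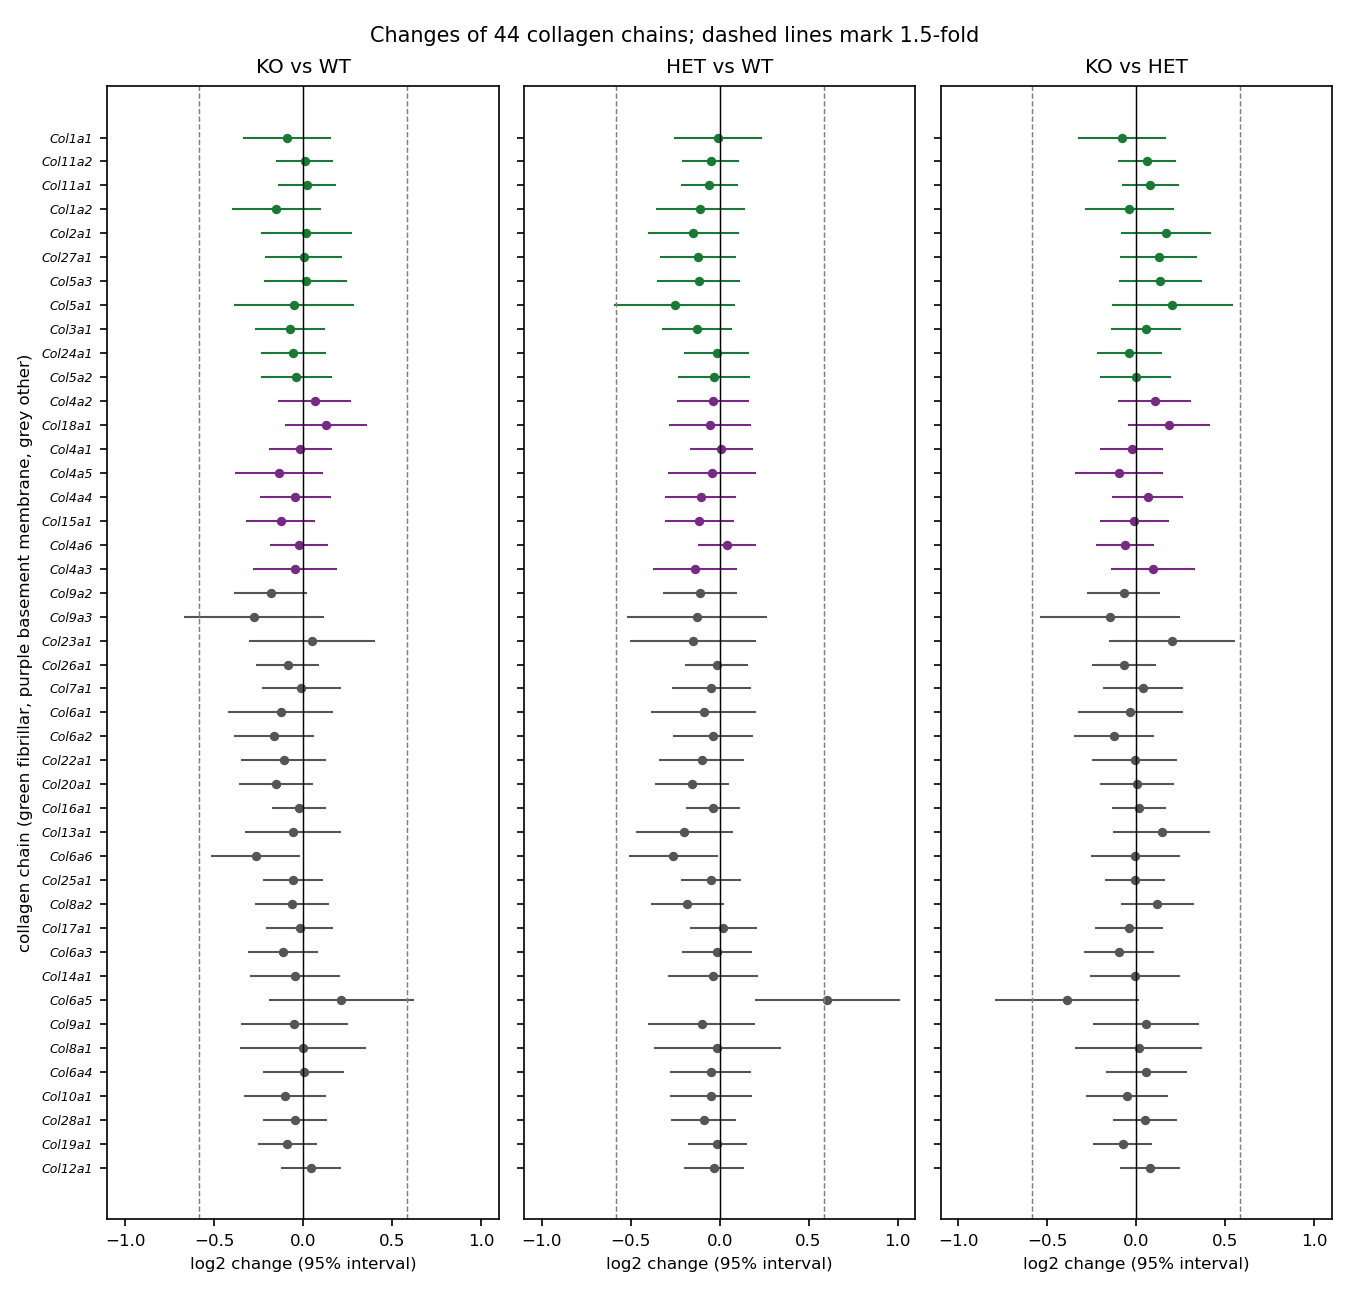
Log2 change of each of the 44 collagen chains (points) with its 95% interval (bars) in KO against WT, HET against WT and KO against HET, from the fit over all 9 arrays; rows are grouped by class and dashed lines mark 1.5-fold. In KO against WT the points run between -0.28 and 0.22, and the point farthest from 0 in any panel is Col6a5 in HET against WT at 0.61.

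The probe sets of the chains were of middling brightness. No chain lay above the upper quartile of all 28940 probe sets on any array (7.26 to 7.38), and none lay below the lower quartile (4.53 to 4.68). No detection calls were used, so a value in this range can be background as well as transcript. The chains also varied little. The distance between a chain's lowest and highest array had a median of 0.36 over the 44 chains, was under 0.5 for 36 of them and under 1 for 43, and reached 1.07 for Col6a5. Many values were equal to the last deposited digit on several arrays. At least 4 of the 9 arrays held 1 shared value for 16 of 44 chains (36.4%), against 19.1% of all genes, and Col26a1 read 6.66 on 7 arrays. All 3 arrays held 1 value for 0 chains in KO, for Col6a2, Col19a1 and Col26a1 in HET, and for Col2a1, Col4a1, Col4a2, Col12a1 and Col24a1 in WT. The same held for 1.49% of all genes in KO, 1.8% in HET and 3.42% in WT. A group SD of 0 in these chains is therefore a property of the deposited values, and its origin was not tested.

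The upstream sequences of the chains described most closely are shown here. Col6a5 and Col6a6 had the smallest unadjusted p in the family and lie side by side on the minus strand of chromosome 9, and Col1a2 stands for the fibrillar chains. The 250 bases before each RefSeq start site (GRCm38.p6, gene strand, 5′ to 3′) were at chr9:105960644-105960893 for Col6a5, chr9:105828086-105828335 for Col6a6 and chr6:4505368-4505617 for Col1a2. Capitals mark matches on either strand to any of 3 short promoter motifs. The first is the GC box, searched as GGGCGG. The second is the CCAAT box, searched as its name is spelled. The last is the TATA box, searched as TATAAA.
Col6a5: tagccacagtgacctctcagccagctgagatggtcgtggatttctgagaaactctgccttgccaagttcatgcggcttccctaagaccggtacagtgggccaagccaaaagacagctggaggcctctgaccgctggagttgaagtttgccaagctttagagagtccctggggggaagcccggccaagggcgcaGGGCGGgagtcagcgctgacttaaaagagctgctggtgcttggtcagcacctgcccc
Col6a6: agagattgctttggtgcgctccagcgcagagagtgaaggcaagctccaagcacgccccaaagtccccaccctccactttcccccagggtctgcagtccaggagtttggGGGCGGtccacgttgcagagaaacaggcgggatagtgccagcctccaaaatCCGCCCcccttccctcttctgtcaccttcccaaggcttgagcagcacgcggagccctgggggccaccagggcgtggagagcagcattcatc
Col1a2: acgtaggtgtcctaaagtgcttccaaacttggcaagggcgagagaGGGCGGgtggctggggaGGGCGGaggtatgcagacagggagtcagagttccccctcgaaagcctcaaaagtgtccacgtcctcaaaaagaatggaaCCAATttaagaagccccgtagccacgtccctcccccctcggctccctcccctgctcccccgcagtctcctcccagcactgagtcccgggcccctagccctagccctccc

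RefSeq windows were matched for 35 of the 44 chains, 38 windows in all, counting alternative starts. A GC box stood in the 250 bases before the start in 57.9% of the chains' windows, against 32.7% of all 32851 windows in the table. A CCAAT box stood in 34.2% of the chains' windows, against 33.8% of all, and a TATA box in 13.2%, against 12.4%. These are matches of letters and say nothing of which factors act there.

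Type I collagen, the main fibril former of connective tissue, is built from Col1a1 and Col1a2. Col1a1 read 6.59, 6.91 and 6.69 in KO, 6.99, 6.68 and 6.77 in HET and 6.92, 6.77 and 6.77 in WT. Col1a2 read 6.34, 6.66 and 6.33 in KO, 6.61, 6.32 and 6.52 in HET and 6.63, 6.64 and 6.51 in WT. In both chains the 3 genotypes overlapped, and KO replicate 2 was the highest KO array. The KO minus WT difference was -0.09 for Col1a1 (SE 0.11, 95% interval -0.33 to 0.15) and -0.15 for Col1a2 (SE 0.11, 95% interval -0.39 to 0.10).

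Col3a1, the type III chain of distensible tissues and vessel walls, read 5.72, 5.72 and 5.65 in KO, 5.72, 5.48 and 5.72 in HET and 5.75, 5.72 and 5.84 in WT. The groups touched at the shared value of 5.72, and KO minus WT was -0.07 (SE 0.09). Col11a1 and Col11a2, minor chains that set fibril width in cartilage, varied least among the fibrillar chains named. Col11a1 averaged 6.56 ± 0.04 in KO, 6.48 ± 0.07 in HET and 6.53 ± 0.02 in WT (SD, n = 3 each). Col11a2 averaged 6.69 ± 0.05 in KO, 6.63 ± 0.06 in HET and 6.68 ± 0.03 in WT (SD, n = 3 each).

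Col5a1, which nucleates fibrils, had the widest spread within KO of the fibrillar class. It read 6.22, 6.58 and 5.97 in KO, 6.22, 5.90 and 6.04 in HET and 6.22, 6.22 and 6.49 in WT, and it was named after its values were seen. Its genotypes overlapped, although HET minus WT was -0.25 (SE 0.15, adjusted p = 0.993). Col2a1, the cartilage fibril chain, averaged 6.50 ± 0.21 in KO, 6.33 ± 0.15 in HET and 6.48 ± 0 in WT (SD, n = 3 each). The other fibrillar chains, Col5a2, Col5a3, Col24a1 and Col27a1, had KO minus WT differences of -0.04, 0.02, -0.05 and 0.01.

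Over the fibrillar class, 6 of 11 chains lay below 0 in KO against WT, with a median change of -0.04 against 0.0064 over all genes. In HET against WT all 11 lay below 0, with a median of -0.11 against 0.0039 over all genes, and none of the 11 passed the test. Leaving out 1 array moved that median between -0.17, without HET replicate 1, and -0.06, without HET replicate 3. The fibrillar median in KO against WT turned to 0.02 without KO replicate 3 and to 0.0013 without WT replicate 3. In KO against HET 4 of 11 lay below 0 and the median was 0.06. The 2 comparisons with WT share the WT arrays, and both comparisons with HET share the HET arrays, so their signs are not separate observations.

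**Figure D2:**
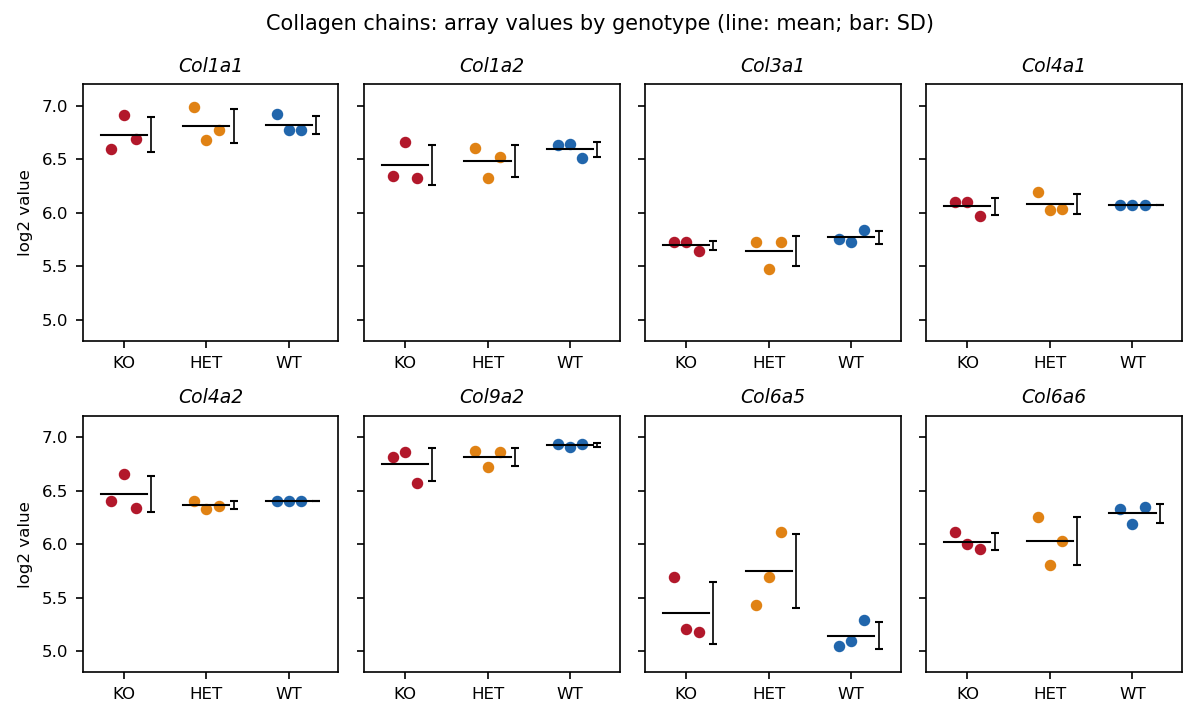
Log2 signal of 8 collagen chains on each array (points), by genotype from KO on the left to WT on the right; horizontal lines are group means and bars show the SD of 3 arrays. The genotypes overlap for Col1a1, Col1a2, Col3a1, Col4a1 and Col4a2, the KO arrays of Col9a2 and Col6a6 lie under the WT arrays, and the HET arrays of Col6a5 lie above the WT arrays.

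Col4a1 and Col4a2 form the type IV network of nearly all basement membranes, including those of brain vessels and of the pial surface. Col4a1 read 6.10, 6.10 and 5.97 in KO, 6.19, 6.02 and 6.04 in HET and 6.07 on all 3 WT arrays. Col4a2 read 6.40, 6.66 and 6.34 in KO, 6.40, 6.33 and 6.36 in HET and 6.40 on all 3 WT arrays. Both KO and HET arrays lay on either side of the WT value. KO minus WT was -0.02 for Col4a1 (SE 0.08, 95% interval -0.19 to 0.16) and 0.07 for Col4a2 (SE 0.09, 95% interval -0.13 to 0.26). The genes are neighbours on chromosome 8 and are read in opposite directions. On KO replicate 2 Col4a2 was at its highest, 6.66, while Col4a1 equalled its KO replicate 1 value after rounding.

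Col18a1, whose carboxyl end is the source of endostatin, read 6.13, 6.40 and 6.13 in KO, 6.13, 5.92 and 6.07 in HET and 6.07, 5.996 and 6.22 in WT. The KO and WT arrays overlapped, and KO minus WT was 0.13 (SE 0.10, adjusted p = 0.979). Col15a1, the relative of Col18a1 in vessel and muscle basement membranes, averaged 5.41 ± 0.11 in KO, 5.43 ± 0.05 in HET and 5.54 ± 0.11 in WT (SD, n = 3 each), with KO minus WT at -0.13 (adjusted p = 0.954). Col4a5 and Col4a6, neighbours on the X chromosome, had KO minus WT differences of -0.14 and -0.02. Col4a3 and Col4a4, the partners of Col4a5 in the kidney filter, had differences of -0.05 and -0.04. In the class 6 of 8 chains lay below 0 in KO against WT (median -0.03), 6 of 8 in HET against WT (median -0.05) and 4 of 8 in KO against HET (median 0.03). Single arrays decided the size of these medians. In KO against WT the median was -0.08 without KO replicate 2 and -0.0024 without KO replicate 3, and in HET against WT it was -0.11 without WT replicate 2 and -0.0076 without HET replicate 2. The KO against HET median ran between -0.03 and 0.08 when 1 array was left out.

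Type VI collagen makes beaded microfilaments around cells, with Col6a4, Col6a5 or Col6a6 thought able to stand in for Col6a3 beside Col6a1 and Col6a2. The 2 chains with the smallest unadjusted p in the family belong to it, and in both the second probe set did not show the difference. Col6a5 read 5.70, 5.20 and 5.18 in KO, 5.43, 5.70 and 6.11 in HET and 5.05, 5.09 and 5.29 in WT. Every HET array lay above every WT array, while the KO arrays overlapped with both. Arrays of HET and WT failed to overlap in this direction in 3.75% of all genes. HET minus WT was 0.61 (SE 0.18, 95% interval 0.21 to 1.01, unadjusted p = 0.0069), which did not pass the adjustment over all genes (adjusted p = 0.993). The range of adjusted p over the alternatives was 0.172 to 1.

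The second Col6a5 probe set read 5.10, 5.22 and 4.96 in KO, 5.13, 5.09 and 5.11 in HET and 5.01, 5.22 and 5.17 in WT. Its genotypes overlapped and its HET minus WT difference was -0.02. The first probe set did not run in order of intact copies, since HET lay above both KO and WT, with a KO minus HET difference of -0.39 (SE 0.18, adjusted p = 0.817).

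Col6a6 read 6.11, 6.001 and 5.95 in KO, 6.25, 5.81 and 6.03 in HET and 6.33, 6.19 and 6.35 in WT. All KO arrays lay below all WT arrays, whereas the HET arrays spanned both. Of all genes, 4.34% had KO arrays wholly below WT arrays. KO minus WT was -0.27 (SE 0.11, 95% interval -0.51 to -0.02, unadjusted p = 0.0369, adjusted p = 0.76), with adjusted p from 0.399 to 1 over the alternatives. HET minus WT was -0.26 (SE 0.11, unadjusted p = 0.0401, adjusted p = 0.993), and KO minus HET was -0.01. The second Col6a6 probe set had differences of -0.04 in KO against WT and -0.05 in HET against WT. Its mean was 4.63, against 6.11 for the first, within the range of the arrays' lower quartiles (4.53 to 4.68). Several arrays held the same value, so this probe set may be too dim to show a difference.

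The remaining type VI chains overlapped between genotypes in every comparison. Col6a1 read 6.44, 6.63 and 6.10 in KO, 6.44, 6.39 and 6.44 in HET and 6.44, 6.40 and 6.70 in WT. Col6a2, its neighbour on chromosome 10, averaged 6.32 ± 0.20 in KO, 6.44 ± 0 in HET and 6.48 ± 0.05 in WT (SD, n = 3 each). Both were lowest on KO replicate 3, with KO minus WT differences of -0.12 and -0.16. Col6a3 and Col6a4 had differences of -0.11 and 0.0041.

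Type IX collagen coats the surface of cartilage fibrils and is built from Col9a1, Col9a2 and Col9a3. Col9a2 read 6.82, 6.86 and 6.57 in KO, 6.87, 6.72 and 6.86 in HET and 6.94, 6.91 and 6.94 in WT. The WT arrays lay above all KO and all HET arrays, with KO minus WT at -0.18 (SE 0.09, adjusted p = 0.863) and HET minus WT at -0.11 (SE 0.09, adjusted p = 0.993). HET arrays lay wholly below WT arrays in 3.1% of all genes. Col9a3 had the largest KO minus WT difference of all 44 chains, -0.28 (SE 0.17, adjusted p = 0.936).

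Col9a3 read 6.82, 6.90 and 6.26 in KO, 7.13, 6.60 and 6.69 in HET and 6.88, 6.92 and 7.02 in WT. KO replicate 3 alone was low, and without it the KO minus WT difference was -0.08, against -0.39 without KO replicate 2. Col9a1 averaged 5.37 ± 0.20 in KO, 5.31 ± 0.23 in HET and 5.42 ± 0.10 in WT (SD, n = 3 each), and its genotypes overlapped. Each of the 3 chains had its lowest KO value on KO replicate 3 and its lowest HET value on HET replicate 2.

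Among membrane-spanning collagens, Col23a1 read 6.67, 7.05 and 6.55 in KO, 6.67, 6.31 and 6.68 in HET and 6.88, 6.46 and 6.76 in WT, with KO minus WT at 0.05 (SE 0.16). The other transmembrane chains, Col13a1, Col17a1 and Col25a1, had KO minus WT differences of -0.06, -0.02 and -0.06. Col26a1 read 6.66, 6.66 and 6.45 in KO, 6.66 on every HET array and 6.66, 6.66 and 6.71 in WT. Only KO replicate 3 and WT replicate 3 departed from the shared value, and KO minus WT was -0.09 (SE 0.08).

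Col20a1, a fibril-associated chain named after its values were seen, was the third chain whose KO arrays all lay below its WT arrays, after Col6a6 and Col9a2. It read 6.20, 6.25 and 6.21 in KO, 6.37, 6.05 and 6.23 in HET and 6.29, 6.45 and 6.37 in WT, with KO minus WT at -0.15 (SE 0.09, adjusted p = 0.927). The 3 chains are 3 of 44, and no chain had KO arrays wholly above WT arrays, where 9.98% of all genes did not overlap, 5.63% with KO higher and 4.34% with KO lower. In HET against WT 2 chains did not overlap, Col6a5 and Col9a2, where 6.85% of all genes did not. In KO against HET every chain overlapped, where 6.54% of all genes did not (3.45% with KO higher and 3.09% with KO lower).

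The other associated, anchoring and network chains were close to level. Col12a1, Col14a1, Col16a1, Col19a1 and Col22a1, which decorate or link fibrils, had KO minus WT differences of 0.05, -0.05, -0.02, -0.09 and -0.11. Col7a1, the anchoring fibril chain of skin, had a difference of -0.01. The network formers Col8a1, Col8a2 and Col10a1 had differences of -0.0006, -0.06 and -0.10, and Col28a1 had -0.04. Of these chains Col8a1 varied most within HET, with 5.56, 4.82 and 5.23, against 5.29, 5.13 and 5.23 in WT. Over the 26 chains that the naming rule did not select, KO minus WT ran between -0.16 and 0.05 and the smallest adjusted p was 0.927. The smallest adjusted p of these 26 was 0.993 in HET against WT and 0.87 in KO against HET.

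More chains lay below 0 than above it in both comparisons with WT, although none passed the test. In KO against WT 33 of 44 chains (75%) lay below 0, against 47.4% of all genes, and the median change was -0.05 against 0.0064 over all genes. In HET against WT 40 of 44 (90.9%) lay below 0, against 48.5% of all genes, and the median was -0.05 against 0.0039. Those above 0 were Col4a1, Col4a6, Col6a5 and Col17a1. In KO against HET 22 of 44 lay below 0, against 48.9% of all genes, and the median was -0.0004, with 0.0027 after quantile normalization and 0.0007 after median centring. After quantile normalization 31 chains lay below 0 in KO against WT and 36 in HET against WT, with medians of -0.03 and -0.06. Median centring gave 31 and 37 chains, with medians of -0.03 and -0.04. Chains measured on the same arrays are not independent, and single arrays moved the split and the medians. Without 1 array the median over the 44 chains ran between -0.09 and -0.01 in KO against WT and between -0.11 and -0.03 in HET against WT. The split was 27 of 44 below 0 in KO against WT without KO replicate 3 and 40 without KO replicate 2, and it was 30 in HET against WT without HET replicate 2. In KO against HET it was 11 without KO replicate 3 and 11 without HET replicate 1.

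The chains moved together from array to array within a genotype. Each chain was set against its own mean over the 9 arrays, and the median deviation of the 44 chains was -0.01, 0.06 and -0.10 on the KO arrays, 0.04, -0.11 and -0.03 on the HET arrays and 0.03, 0.01 and 0.03 on the WT arrays. The same median over all genes lay between -0.0083 and 0.0155 on every array. Within each genotype, however, the chain medians ranked as the arrays' own median signals did. Those were 5.84, 5.92 and 5.80 in KO, 5.89, 5.82 and 5.85 in HET and 5.87, 5.86 and 5.88 in WT. The pattern is thus not shown to be particular to the chains, and its link to the array medians was not tested. KO replicate 2 held 36 chains above their own mean and KO replicate 3 held 8, with KO replicate 1 at 16. HET replicate 1 held 36, HET replicate 2 held 9 and HET replicate 3 held 14, and the WT arrays held 34, 27 and 34. Of all genes, between 44.5% and 57.3% lay above their own mean on an array. HET replicate 2 was the single lowest array for 20 of the 44 chains, and KO replicate 2 was the single highest for 14. The spread among the KO arrays and among the HET arrays was thus wider than the differences between genotype medians. A chain's SD had a median of 0.119 in KO, 0.119 in HET and 0.064 in WT, against 0.130, 0.117 and 0.0769 over all genes.

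**Figure D3:**
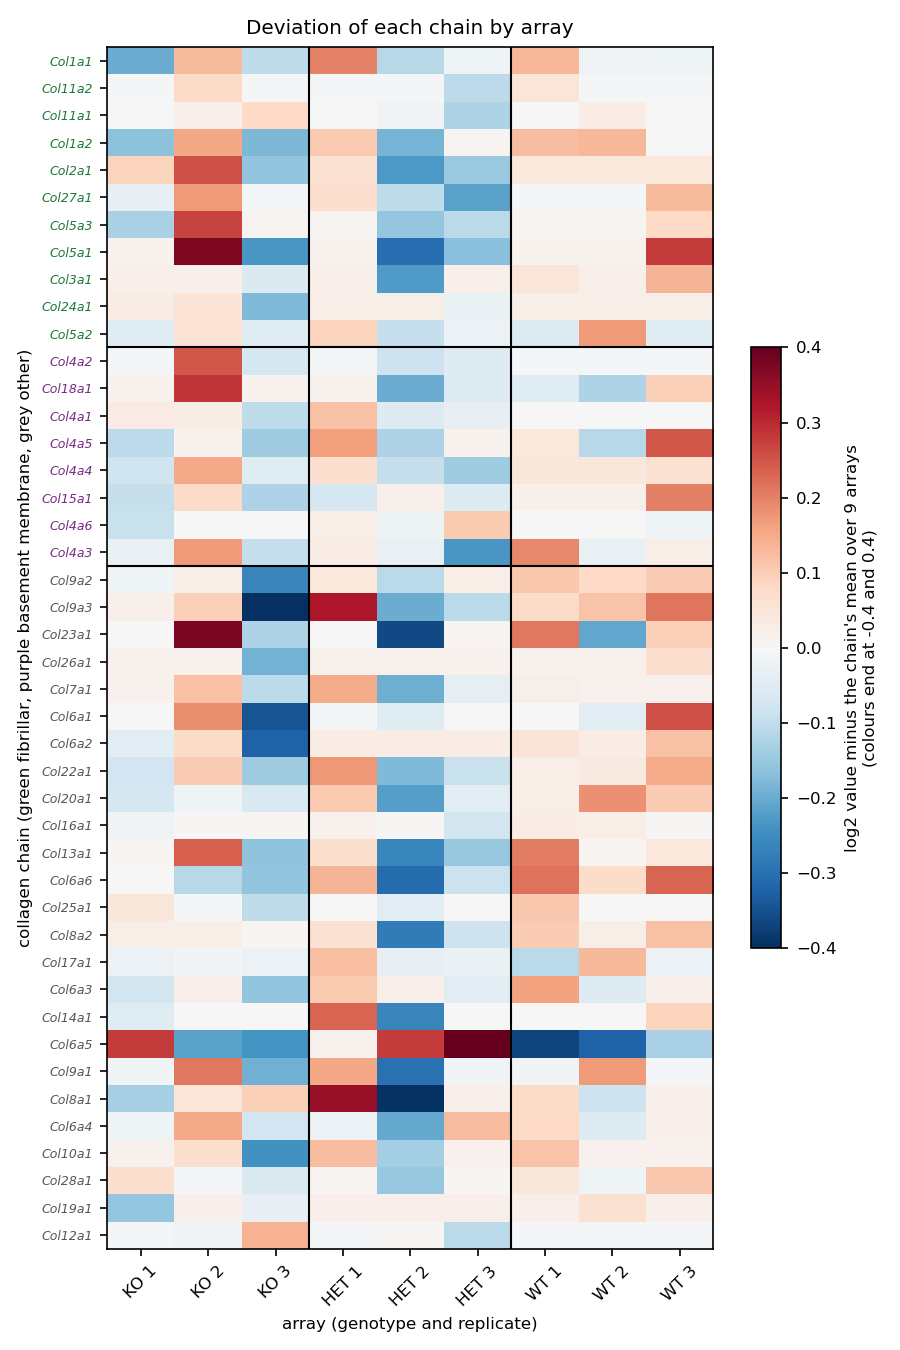
Deviation of each chain (rows, by class) on each array (columns, KO to WT) from the chain's own mean over 9 arrays, in log2 units; red is above and blue below that mean, and colours end at -0.4 and 0.4. The columns of KO replicate 3 and HET replicate 2 are mostly blue (8 and 9 chains above their mean), and those of KO replicate 2 and HET replicate 1 mostly red (36 chains above their mean on each).

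By class, the arrays did not line up in full. The fibrillar median stood at 0.13 on KO replicate 2, -0.11 on HET replicate 2 and -0.10 on HET replicate 3, but at -0.06 on KO replicate 3, and the basement membrane median at 0.11 on KO replicate 2 and -0.08 on KO replicate 3. Among the other chains the lowest medians were -0.15 on HET replicate 2 and -0.12 on KO replicate 3, while HET replicate 3 stood at -0.0023 and KO replicate 2 at 0.02. On the WT arrays every class median lay between -0.0044 and 0.0466. KO replicate 2 and HET replicate 1 carry the lowest array weights. They are also the KO and HET arrays with the most chains above their own mean, 36 of 44 on each. Leaving them out lowers the KO and HET means of most chains, so a shift below WT follows from the choice. With both left out, 0 chains were called and 40 of 44 lay below 0 in KO against WT, and 0 were called and 42 of 44 lay below 0 in HET against WT. In that fit, chosen after seeing the data, 6 of 44 chains had an unadjusted p under 0.05 in KO against WT, where 11.4% of all genes did, and 10 of 44 in HET against WT, where 14.4% of all genes did.

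**Figure D4:**
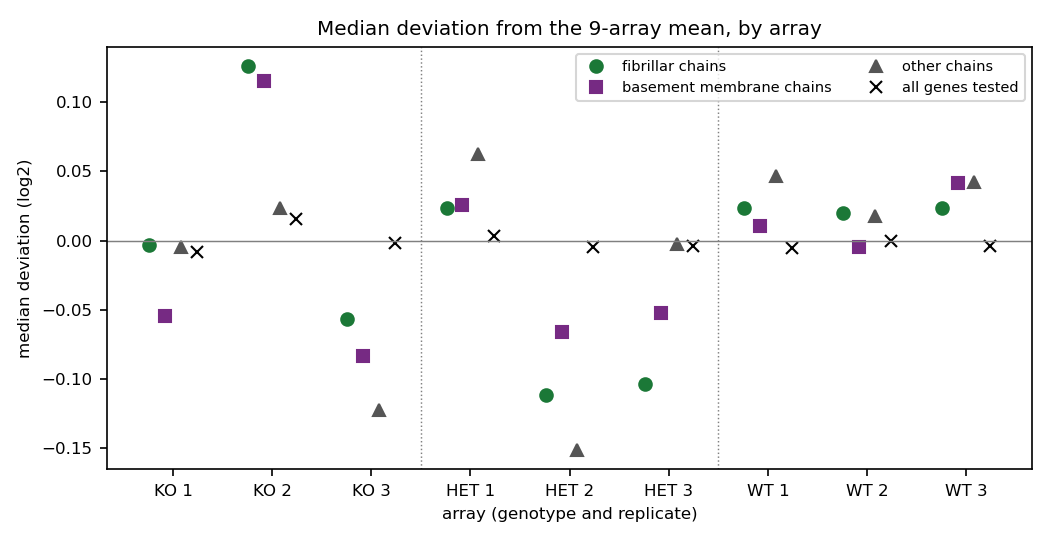
Median log2 deviation from the 9-array mean on each array, KO on the left and WT on the right, for fibrillar chains (circles), basement membrane chains (squares), other chains (triangles) and all genes (crosses). All genes stay between -0.0083 and 0.0155, while the class medians run between 0.13 on KO replicate 2 and -0.15 on HET replicate 2.

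The enzymes that modify and fold collagen were read beside the chains, from a list of 20, of which 19 were measured and Fkbp10 was not. In KO against WT 0 of 19 rose, 1 fell (0.286% of all genes fell) and 18 did not pass, with a median change of 0.02. An unadjusted p under 0.05 was found for 4 of the 19, where 6.15% of all genes had one. P3h2, a prolyl 3-hydroxylase that acts on type IV collagen among others, was the gene that fell. It read 5.14, 4.97 and 5.09 in KO, 5.40, 5.44 and 5.41 in HET and 6.12, 5.64 and 5.60 in WT. The 3 genotypes did not overlap, and HET lay between KO and WT. KO arrays lay wholly below WT arrays in 4.34% of all genes, HET below WT in 3.1% and KO below HET in 3.09%. P3h2 fell by 0.72 in KO relative to WT (SE 0.13, adjusted p = 0.0436), and HET minus WT was -0.37 (SE 0.13, adjusted p = 0.993). The KO call was lost in 16 of 19 alternatives, among them each of the fits without 1 array, with adjusted p from 0.0331 to 0.219.

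P4ha3, a catalytic subunit of prolyl 4-hydroxylase, read 9.17, 8.90 and 8.80 in KO, 8.73, 8.45 and 8.05 in HET and 8.24, 8.38 and 8.30 in WT. KO lay above WT on every array, as in 5.63% of all genes. The difference was 0.65 on average (SE 0.16) and did not pass (adjusted p = 0.196). Colgalt2, which adds galactose to hydroxylysine, had a KO minus WT difference of -0.19 (SE 0.08, adjusted p = 0.742). Serpinh1, the collagen chaperone, was named after its values were seen. It read 6.14, 6.80 and 6.16 in KO, 6.14, 6.14 and 5.89 in HET and 6.14 on all 3 WT arrays, so that KO replicate 2 alone stood high, as it did for many chains. KO minus WT was 0.23 (SE 0.16, adjusted p = 0.958).

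Genes that act on collagen outside the cell showed 0 calls in limma's test of KO against WT. Of all genes 0.451% were called and 6.15% had an unadjusted p under 0.05, so 0 calls in lists this short says little. Of 15 measured of 17 listed for procollagen processing and cross-linking, 0 had an unadjusted p under 0.05, and the median change was -0.0019. The 3 with the smallest unadjusted p were Loxl1 and Loxl4, lysyl oxidases that cross-link fibrils, at -0.17 and -0.18, and Lum, a proteoglycan that binds fibrils, at -0.18. Of 12 measured of 13 collagen receptors, 0 had an unadjusted p under 0.05, and the median was -0.0012. Adgrg1, the receptor through which type III collagen acts on the cortical surface, averaged 7.52 ± 0.20 in KO, 7.66 ± 0.18 in HET and 7.74 ± 0.08 in WT (SD, n = 3 each), with KO minus WT at -0.22 (adjusted p = 0.902). Ddr2, a fibrillar collagen receptor kinase, stood at -0.26 (adjusted p = 0.853) and Itga11 at 0.16.

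Of 15 measured of 16 collagen-degrading enzymes and inhibitors, 1 had an unadjusted p under 0.05 (6.15% of all genes), Mmp3 at -0.26 (adjusted p = 0.782), and the median was 0.05. Mmp16, a membrane-bound matrix metalloproteinase, averaged 7.65 ± 0.11 in KO, 7.60 ± 0.09 in HET and 7.49 ± 0.06 in WT (SD, n = 3 each), with KO minus WT at 0.16 (adjusted p = 0.884). Mmp8 had a difference of 0.21 (adjusted p = 0.897). In HET against WT and in KO against HET 0 members of these 4 lists were called, where 0% and 0.206% of all genes were. At an unadjusted p under 0.05 there were 2 of 19 folding and modifying enzymes in HET against WT, where 4.05% of all genes were. The counts in KO against HET were 3 of 19 such enzymes and 1 of 15 processing genes, where 6.16% of all genes were.

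**Figure D5:**
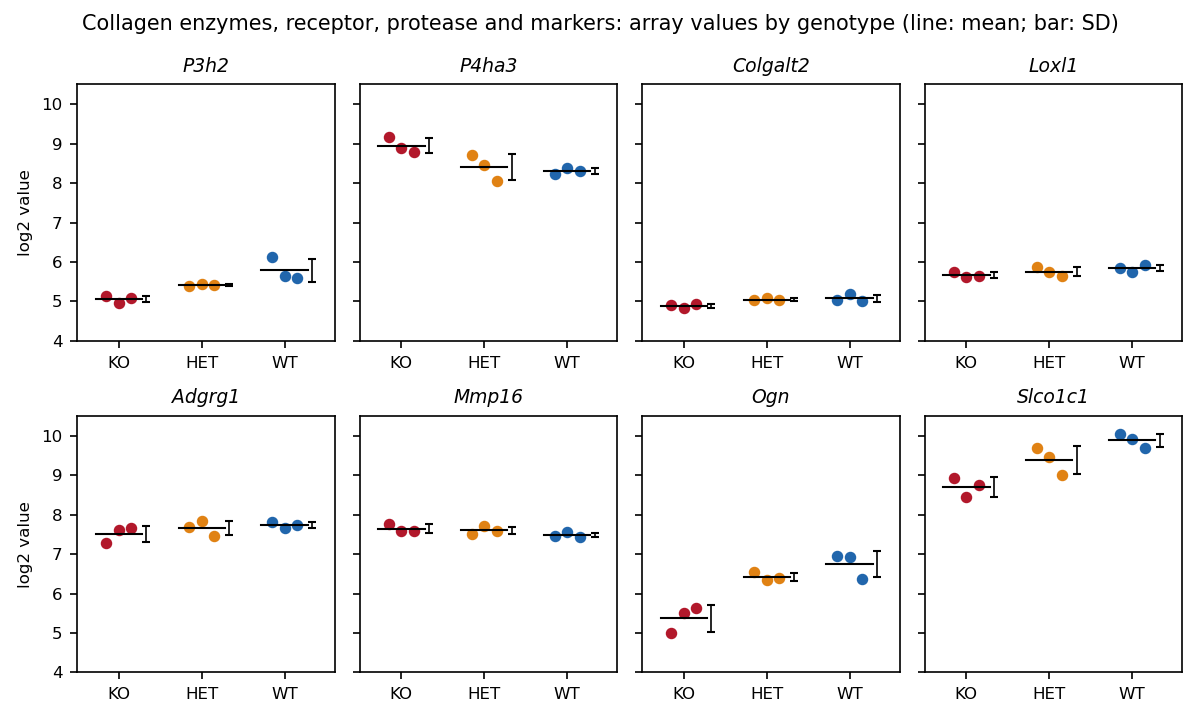
Log2 signal on each array (points) of 3 collagen-modifying enzymes, a cross-linking enzyme, a collagen receptor, a matrix protease, and the markers Ogn and Slco1c1, by genotype from KO on the left to WT on the right; lines are group means and bars show the SD of 3 arrays. P3h2, Ogn and Slco1c1 have their KO arrays under their WT arrays and passed the test, while P4ha3 has its KO arrays above and did not pass (adjusted p = 0.196). Colgalt2 has its KO arrays under and Mmp16 above the WT arrays, and neither passed (adjusted p = 0.742 and 0.884).

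Meningeal fibroblasts and vessel cells are known producers of collagen, and markers of both were read on the same arrays. Which cells gave the collagen signal here was not tested. In bulk RNA, fewer cells of a type and less RNA per cell cannot be told apart. Of 15 listed fibroblast markers 14 were measured, 3 of them (Lum, Foxc1 and Aldh1a2) lay under every array's lower quartile and 0 lay above every upper quartile. Their summed log2 signal was 72.5 to 75.6 on the KO arrays, 74.4 to 77.3 on the HET arrays and 75.6 to 75.7 on the WT arrays. Ogn, described next, makes up most of the gap between the mean KO and WT sums. Over the 14 markers the median KO minus WT change was -0.07, with 9 of 14 below 0, where 47.4% of all genes were. Ogn, a small proteoglycan in the list, fell by 1.37 in KO relative to WT (SE 0.19, adjusted p = 0.012), where 0.286% of all genes fell, and the other 13 did not pass. Ogn read 4.99, 5.51 and 5.63 in KO, 6.55, 6.34 and 6.38 in HET and 6.96, 6.92 and 6.36 in WT. The call was lost in 4 of 19 alternatives, among them the fits without WT replicate 1 (adjusted p = 0.0868) and without WT replicate 2 (adjusted p = 0.0799). Among the fibroblast markers Pdgfra had a KO minus WT difference of 0.27 (adjusted p = 0.682).

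Of 15 endothelial markers 14 were measured, 2 (Slco1a4 and Sox17) lay below every lower quartile, and the sums were 83.2 to 84.0 in KO, 83.1 to 85.1 in HET and 84.1 to 84.9 in WT. The median KO minus WT change of the 14 was -0.03, with 8 of 14 below 0, where 47.4% of all genes were. Slco1c1, a thyroid hormone transporter of brain vessels and glia, fell by 1.17 in KO relative to WT (SE 0.18, adjusted p = 0.0199). Its fall exceeds the gap between the mean KO and WT sums. The other 13 did not pass, where 0.286% of all genes fell. The Slco1c1 call was lost in 8 of 19 alternatives, among them the fits without KO replicate 2, KO replicate 3, HET replicate 2 or any 1 WT array (adjusted p = 0.0555 to 0.137). All 13 pericyte and smooth muscle markers were measured, 0 lay below every lower quartile and 0 were called, with 1 at an unadjusted p under 0.05 (6.15% of all genes). Their sums were 78.6 to 79.7 in KO, 77.3 to 79.2 in HET and 78.7 to 78.8 in WT. Tagln, a smooth muscle actin-binding protein, had a KO minus WT difference of 0.25 (adjusted p = 0.642), and Pdgfrb, the pericyte growth factor receptor, had -0.29 (adjusted p = 0.82). On KO replicate 2, where the chains were high, 9 of 14 fibroblast, 10 of 14 endothelial and 10 of 13 pericyte markers lay above their own mean. On KO replicate 3, where they were low, it was 6, 3 and 5, and on HET replicate 2 it was 5, 7 and 7. On HET replicate 1, where the chains were high, it was 11, 10 and 4. The part of these cells in the array pattern of the chains was not tested.

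Markers of the labelled tissue were read on the same arrays, with no detection calls and by probe brightness only, which does not show how many cells of a type were present. Of 14 radial glia markers, all measured, 8 (Sox2, Fabp7, Slc1a3, Vim, Sox9, Ptprz1, Nr2e1 and Dbi) lay above every upper quartile, 1 (Hopx) lay below every lower quartile and 0 were called in KO against WT (0.451% of all genes were), with 4 of 14 at an unadjusted p under 0.05. Of 10 neuronal markers 8 lay above every upper quartile, and 0 were called, with 2 of 10 at an unadjusted p under 0.05. Of all genes 6.15% had such a p in that comparison. The 4 radial glia markers were Prom1, Pax6, Ptprz1 and Dbi, with KO minus WT differences of -0.57, -0.41, -0.30 and -0.26 (adjusted p = 0.372 to 0.642). Over the 14 the median was -0.07, with 9 of 14 below 0, where 47.4% of all genes were. The 2 neuronal markers were Gad1 at 0.24 and Neurod6 at 0.28 (adjusted p = 0.65 and 0.739). Over the 10 neuronal markers the median was 0.10, with 2 of 10 below 0. Of 12 choroid plexus markers 10 were measured, 1 (Clic6) lay below every lower quartile, and their sums were 52.6 to 53.9 in KO, 51.2 to 53.8 in HET and 52.0 to 52.6 in WT. Over the 10 measured the median KO minus WT change was -0.02, with 6 of 10 below 0, where 47.4% of all genes were. F5, the coagulation factor V gene in that list, rose by 0.89 in KO relative to WT (SE 0.10, adjusted p = 0.00512), where 0.166% of all genes rose. Relative to HET, F5 rose by 0.99 in KO (SE 0.10, adjusted p = 0.00416), where 0.0451% of all genes rose. The other 9 did not pass in either comparison. The KO against HET call of F5 was lost with only those genotypes fitted (adjusted p = 0.0615). Ttr, the most typical choroid plexus transcript, read 8.16 on HET replicate 2 and between 5.44 and 6.45 on the other 8 arrays. HET replicate 2 was also the array with the lowest collagen median, and whether these are linked was not tested.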

How the data were processed

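RNA of 9 samples was measured on Affymetrix Mouse Gene ST 1.0 arrays. The file the authors deposited holds log2 signals of 28940 probe sets and 0 missing values. RMA, affy and limma are named, without versions, per the submitters' processing notes. Genome build and probe set annotation of that step are not given in the sources used here. Probe sets were named from the platform annotation: 21789 had 1 gene symbol, 1621 several and 5530 were not listed. Of the single-symbol ones, 21698 matched the GRCm38.p6 gene table by gene ID and 0 symbols were updated. For 999 genes with several probe sets the one with the highest mean was taken, which left 19938 genes.

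One linear model with a coefficient for each genotype was fitted to the 9 arrays (R 4.3.3, limma 3.58.1, lmFit and eBayes, two-sided), without further normalization or filter. Benjamini-Hochberg adjustment ran over all 19938 genes, and a call needed an adjusted p under 0.05. Intervals are 95% intervals of each gene on its own. The number of arrays, 3 per genotype, limits the precision. The script was tested on simulated data.

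The naming rule took Prdm16, chains with an unadjusted p under 0.05 in any comparison, in each class the 4 highest means and the 3 largest changes in KO against WT, and partner chains. Of each of the 10 lists it took called members and at most the first 3 by unadjusted p in KO against WT. Of the 44 chains, 18 were named this way. Members and lists were chosen with earlier results of these data known. Promoter sequences are RefSeq's, from GRCm38.p6, and were used only as text. Alternative fits used a replicate block, only 2 genotypes, eBayes with trend and robust, array weights, the dimmest 1 in 3 genes removed, averaged probe sets, median centring, quantile normalization, Xist as a covariate, an adjusted p under 0.1, or 1 array fewer. Added after seeing the data was a fit without KO replicate 2 and HET replicate 1.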

Additional observations from a re-analysis of the deposited data

How the results depend on the processing

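The count of called collagen chains was 0 in each comparison under all 20 alternatives, with a smallest adjusted p for any chain of 0.34 in KO against WT, 0.172 in HET against WT and 0.27 in KO against HET. Leaving out 1 array moved the number of chains below 0 in KO against HET between 11 and 28, and their median change between -0.046 and 0.075. The number of genes called in KO against WT was 33 with only those genotypes fitted, 151 with array weights and 50 without KO replicate 2 and HET replicate 1, and between 23 and 77 without 1 array. In KO against HET it was 8 with only those genotypes fitted, 21 with median centring and 24 with Xist as a covariate, and between 12 and 75 without 1 array. The causes were not tested. The labels do not say whether the replicate numbers pair the arrays. Arrays of different genotypes with the same number had correlations of their deviations between -0.336 and 0.0555. With different numbers these were between -0.155 and 0.308. A closer match of same-numbered arrays was thus not seen, but deviations from means of 3 arrays cannot settle the question. With the replicate block 19 genes were called in KO against HET, and 0 collagen chains in each comparison. With the block the adjusted p of P3h2 in KO against WT was 0.0611. With 3 arrays per genotype, the median SE of a chain's log2 change was 0.0962, which limits what these arrays can show. The signals also lay in the middle of the array distribution, where background cannot be told apart from transcript without detection calls.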
